A study of Mus musculus with 41 samples.

Results

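The nuclear-encoded subunits of the mitochondrial respiratory chain and ATP synthase were followed across 13 groups of a mouse endocardial cell line in which Notch signalling was stimulated or blocked. Members were chosen by gene name: every gene of the first deposited table whose symbol starts with Nduf, Uqcr, Cox4 to Cox8 or Atp5, or is Sdha, Sdhb, Sdhc or Sdhd, leaving out the assembly factors Ndufaf and Sdhaf. The rule gave 78 of the 13886 genes of that table. By name, 38 belong to complex I, 4 to complex II, 8 to complex III, 12 to complex IV and 16 to complex V. Of the 78, 77 are protein coding and Ndufab1-ps is a processed pseudogene. All but Cox6b2 were also listed in the second experiment, and all 78 in the third. Every listed member passed the filter on low signal, so each was tested.

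The study used MEEC, a wild-type line of mouse embryonic endocardial cells, the cells that line the heart from inside, in 41 libraries from 3 experiments. In the first, MEEC spent 24 h or 6 h over the OP9 stromal line carrying the Notch ligand Dll4, the Notch ligand Jag1, or GFP as control (n = 3 libraries per group). In the second, MEEC were kept for 24 h in 20 µM RO4929097 or in the vehicle DMSO, and then for 6 h over OP9-GFP (n = 4). In the third, MEEC grew for 38 h, the last 14 h of them without serum, on recombinant ligand with RO4929097 (rDLL4 + RO, rJAG1 + RO), on recombinant ligand with DMSO (rDLL4, rJAG1), or with DMSO and no ligand (DMSO; n = 3). RO4929097 blocks gamma-secretase, the protease that frees the active Notch fragment. MEEC were laid on the OP9 cells at 25% confluency in the 24 h groups and at 50% in the 6 h groups, with OP9 cells at 90%, so time and seeding density cannot be told apart. Nothing in the labels says that MEEC were separated from OP9 cells, which are mouse cells too and have the same genes. In such bulk RNA, fewer cells of a type and less RNA per cell cannot be told apart.

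The respiratory chain passes electrons from NADH and succinate to oxygen and pumps protons across the inner mitochondrial membrane, and ATP synthase uses the returning protons to make ATP. Complex I oxidizes NADH, complex II oxidizes succinate as a step of the citric acid cycle, complex III hands electrons to cytochrome c, and complex IV reduces oxygen. Complexes I, III, IV and V are built from subunits of both genomes: a few membrane-embedded core proteins come from mitochondrial DNA, while the far larger number described here come from the nucleus. The factors NRF1 and GABPA (also called NRF2) and the coactivators of the PGC-1 family are known regulators of these nuclear genes. Cells of the early embryonic heart rely largely on glycolysis, and oxidative metabolism grows as the heart matures.

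The libraries held a median of 15.2 M, 22.5 M and 18.1 M reads in the 3 experiments, and 11.2 M to 34.2 M over all. The unit throughout is the authors' normalized signal, reads plus an offset over a scaled library size, close to reads per M. The libraries of replicate 2 in the 6 h groups of the first experiment stood apart, and so did replicate 2 of rJAG1 in the third, as their values show further down. Of 13 endothelial and endocardial markers, 8 were listed in the first experiment, 7 in the second and 8 in the third. The defining endothelial genes Pecam1, Cdh5, Tie1, Emcn and Erg were among those not listed. Of 13 markers of OP9-like stroma, 9, 7 and 7 were listed, with summed signals of 765 to 1240, 834 to 1775 and 756 to 1284. The third experiment had no OP9 cells, so this sum does not single out OP9 cells. In the second, replicate 1 was highest in both groups, at 1775 after RO4929097 and 1686 after DMSO. Lpl, Kitl and Cebpa had higher medians in the third experiment than in the first, and Vcam1, Cxcl12, Pdgfra and Pdgfrb lower. The experiments were normalized apart, so these levels were not tested. Of 10 cardiomyocyte markers 6 were listed in the first experiment, with sums of 21.4 to 79.1.

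Promoters are shown for the 6 members called over at least 2 of the 3 OP9 lines at 24 h against 6 h, the comparison with the most calls, so that the letters searched below can be seen in place. Each is the 250 bases before the RefSeq start on the gene's own strand, 5′ to 3′, in build GRCm38.p6, and capitals mark a match to the NRF1 or GABPA letters. By the gene spans printed further down, the Atp5g2 window lies inside the gene. Those of Cox7c, Ndufs4, Sdha and, at its edge, Uqcrh reach into the gene.
Atp5c1 (chr2:10080511-10080760, minus strand): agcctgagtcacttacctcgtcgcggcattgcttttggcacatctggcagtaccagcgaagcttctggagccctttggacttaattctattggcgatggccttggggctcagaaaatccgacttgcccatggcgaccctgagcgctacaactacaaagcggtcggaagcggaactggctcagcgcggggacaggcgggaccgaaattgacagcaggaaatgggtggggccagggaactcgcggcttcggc
Atp5g2 (chr15:102671048-102671297, minus strand): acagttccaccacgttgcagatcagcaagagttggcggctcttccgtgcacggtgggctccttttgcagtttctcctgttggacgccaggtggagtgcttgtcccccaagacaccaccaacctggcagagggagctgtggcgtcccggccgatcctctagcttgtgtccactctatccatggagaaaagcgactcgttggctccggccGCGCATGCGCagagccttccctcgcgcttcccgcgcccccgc
Cox7c (chr13:86046796-86047045, minus strand): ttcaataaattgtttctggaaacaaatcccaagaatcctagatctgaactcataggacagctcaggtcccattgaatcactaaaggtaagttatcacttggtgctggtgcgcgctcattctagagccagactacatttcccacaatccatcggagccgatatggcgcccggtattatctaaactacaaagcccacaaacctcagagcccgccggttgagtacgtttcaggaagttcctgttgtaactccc
Ndufs4 (chr13:114388095-114388344, minus strand): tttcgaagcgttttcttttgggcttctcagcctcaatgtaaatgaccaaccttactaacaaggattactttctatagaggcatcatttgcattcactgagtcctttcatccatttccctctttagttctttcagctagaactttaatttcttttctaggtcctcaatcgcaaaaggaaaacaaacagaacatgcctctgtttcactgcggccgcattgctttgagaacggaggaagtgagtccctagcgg
Sdha (chr13:74350241-74350490, minus strand): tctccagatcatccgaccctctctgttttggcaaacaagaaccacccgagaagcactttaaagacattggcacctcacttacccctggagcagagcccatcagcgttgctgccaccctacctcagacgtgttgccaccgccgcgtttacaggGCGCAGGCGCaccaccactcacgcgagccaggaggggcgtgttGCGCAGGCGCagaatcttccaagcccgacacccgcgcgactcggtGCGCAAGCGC
Uqcrh (chr4:116075071-116075320, minus strand): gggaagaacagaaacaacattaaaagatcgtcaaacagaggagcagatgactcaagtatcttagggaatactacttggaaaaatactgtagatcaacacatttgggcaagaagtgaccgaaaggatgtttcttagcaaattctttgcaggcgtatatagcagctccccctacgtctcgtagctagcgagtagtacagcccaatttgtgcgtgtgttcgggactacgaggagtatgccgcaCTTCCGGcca

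The NRF1 palindrome, whose matches are the capitals in the Sdha and Atp5g2 promoters, was searched on both strands like the other motifs. It lay in 12 of the 64 member promoters matched in RefSeq, or 18.75%, against 3.863% of all 27025 promoters of the same length. The Sdha promoter held 3 such matches and the Atp5g2 promoter 1. The GABPA letters CCGGAAG lay in 11 member promoters (17.19%), Uqcrh among them, against 7.053% of all promoters. The ESRRA letters TCAAGGTCA lay in 1 member promoter, that of Atp5g3, or 1.562%, against 0.3663% of all. The YY1 letters AAGATGGC lay in 0 member promoters, against 1.587% of all, and the TATA letters TATAAA in 5 (7.812%), against 12.97% of all. The promoters of Atp5c1, Cox7c and Ndufs4 held no NRF1, GABPA, ESRRA or YY1 letters in these windows. Member promoters were richer in GC, with a median of 56.2% against 52% over all promoters, and both the NRF1 and the GABPA letters are GC-rich. A match is a description of letters, not a bound site.

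Members differed widely in level. On signal per kb of the principal transcript, averaged over the first experiment, the highest was Atp5b, the catalytic beta subunit of ATP synthase, at 630.3. The next were Atp5g3 at 349, which encodes the proton-carrying c subunit, and Cox4i1, the common form of a complex IV subunit that binds ATP, at 256. Atp5a1, the alpha subunit that pairs with beta in the enzyme's head, was also at 256. The median per kb was 162 in complex V, 163 in complex IV, 92.5 in complex III, 61.1 in complex II and 52.9 in complex I.

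**Figure D1:**
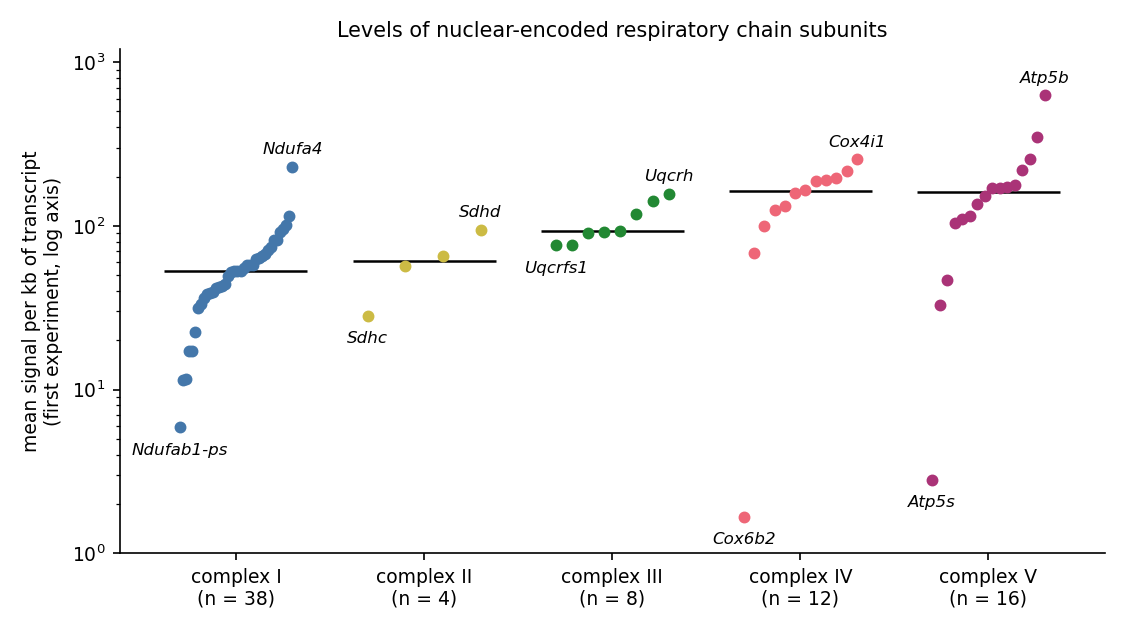
Mean signal per kb of transcript (log axis) of the 78 members in the first experiment, by complex. Points are genes, bars are medians of a complex, and the highest and lowest gene of each complex is named: complex V spans 2.8 (Atp5s) to 630.3 (Atp5b).

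Within complex I, levels per kb ran from 5.9 for the pseudogene Ndufab1-ps to 229.9 for Ndufa4, which is named as a complex I subunit but has since been assigned to complex IV. Sdhd, a membrane anchor, was the highest member of complex II at 94.8 per kb and Sdhc, the other anchor, the lowest at 28.3. In complex III, Uqcrh, the hinge protein next to cytochrome c1, was highest at 158 per kb, and Uqcrfs1, the Rieske iron-sulfur protein, lowest at 75.9. Cox6b2, the testis form of a complex IV subunit, stood at 1.7 per kb, against 189 for its widespread counterpart Cox6b1. Atp5s, a coupling factor that is not a core part of the enzyme, was lowest in complex V at 2.8 per kb.

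For complex IV subunits with several isoforms, the first experiment listed the widespread form, and a second form, Cox6b2, only beside Cox6b1. Cox4i1, Cox6a1, Cox6b1, Cox7a2 and Cox8a, the forms found in most tissues, had 256, 216, 189, 166 and 189 per kb in the first experiment. The genes Cox4i2, Cox8b and Ndufa4l2 were listed in none of the 3 tables, and Cox6a2 and Cox7a1, the heart and muscle forms, were not in the first. Cox5a and Cox5b, each a single-gene subunit of complex IV, had 195.5 and 99.2 per kb. Cox7a2l, a factor that joins complexes III and IV into supercomplexes, had 68.3. Among the 3 genes for the same mature c subunit, Atp5g3 gave a median of 58.1% of the summed signal per kb over the libraries of the first experiment, Atp5g2 36.4% and Atp5g1 5.44%. These shares were 57.1%, 36.6% and 6.34% in the second experiment, and 56.9%, 37.7% and 5.09% in the third. They depend on the transcript lengths used, 718 bases for Atp5g3, 586 for Atp5g2 and 2675 for Atp5g1. Before division by length, the mean signals in the first experiment were 251, 128 and 88.1.

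Together the members took 0.659% to 0.842% of a library's signal in the co-cultures of 24 h and 6 h. The range was 0.710% to 0.781% in the inhibitor co-cultures and 0.715% to 0.855% on recombinant ligand. The 13 subunits encoded by mitochondrial DNA took more, 1.75% to 3.09%, 1.92% to 2.63% and 2.20% to 2.91%. Between libraries of a group, the SD of a member's log2 signal had a median of 0.11, 0.10 and 0.11 in the 3 experiments, and was highest for Ndufab1-ps. Group means of a member spanned a median of 0.25, 0.04 and 0.16 on the same log2 scale. In the second experiment the span of the group means was thus below the spread between libraries.

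The first comparison asked what changed between 24 h and 6 h over each OP9 line. Most members had small positive changes: over OP9-Dll4 the median log2 change was 0.17 and 71 of 78 members had a positive value, over OP9-Jag1 0.10 with 61 of 78, and over OP9-GFP 0.20 with 76 of 78. The median over all genes was -0.01, -0.00 and -0.01 in these comparisons, and 48.6%, 49.3% and 48.1% of all genes were positive. In all, 59 members were positive over all 3 lines and 2 were negative over all 3. Called members (limma, adjusted p under 0.05) numbered 9 higher and 0 lower over OP9-Dll4, or 11.5% higher against 9.09% of all genes, with 8.33% of all genes lower. Over OP9-Jag1, 3 rose and 0 fell, or 3.85% against 7.14% of all genes higher and 7.61% lower. Over OP9-GFP, 13 rose and 0 fell, or 16.7% against 9.45% of all genes higher and 9.71% lower. At an unadjusted p under 0.05 there were 30 members over OP9-Dll4 (38.46%, against 32.7% of all genes), 14 over OP9-Jag1 (17.95%, against 29.2%) and 40 over OP9-GFP (51.28%, against 34.6%). The share of members that rose was thus near that of all genes over OP9-Dll4 and below it over OP9-Jag1.

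**Figure D2:**
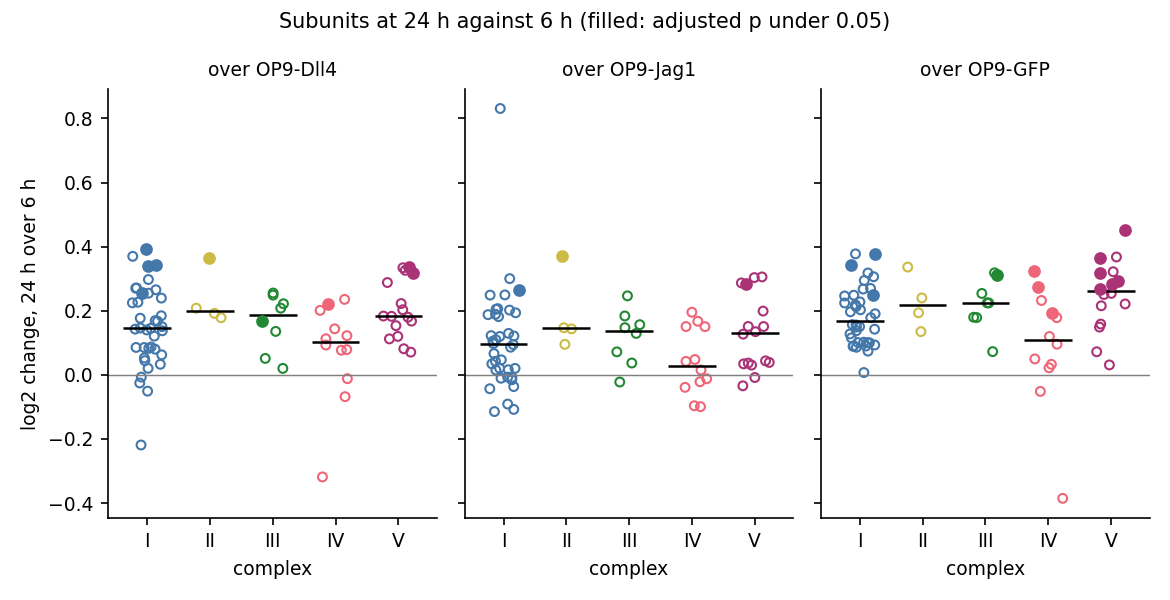
Log2 change of each member at 24 h over 6 h, by complex, over OP9-Dll4, OP9-Jag1 and OP9-GFP. Filled points passed an adjusted p of 0.05 and bars are medians of a complex: over OP9-GFP these run from 0.11 in complex IV to 0.26 in complex V.

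By complex, the median log2 change over OP9-GFP was 0.26 in complex V, 0.22 in complex III, 0.22 in complex II, 0.17 in complex I and 0.11 in complex IV. Complex IV also had the smallest median over OP9-Dll4 (0.10) and over OP9-Jag1 (0.03). Over OP9-Dll4, 4 members of complex I rose, 2 of complex V and 1 each of complexes II, III and IV. Over OP9-Jag1, 1 member each of complexes I, II and V rose. Over OP9-GFP, 6 members of complex V rose, 3 of complex I, 3 of complex IV and 1 of complex III. The complexes were not tested against each other.

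Ndufs4, an accessory subunit of complex I next to its NADH-oxidizing arm, lies on chromosome 13 (114287795 to 114388258, minus strand). Over OP9-Dll4 its signal was 40.8, 47.2 and 42.8 in the 24 h libraries, against 34.2, 32.9 and 35.5 in the 6 h libraries. Over OP9-Jag1 it was 43.3, 45.0 and 40.9 at 24 h, against 40.5, 33.0 and 33.8 at 6 h. Over OP9-GFP it was 38.4, 41.8 and 43.8 at 24 h, against 33.4, 29.4 and 32.0 at 6 h. In each pair the 24 h libraries were all above the 6 h libraries, narrowly so over OP9-Jag1. The log2 changes were 0.34 ± 0.08, 0.27 ± 0.08 and 0.38 ± 0.08 (SE), with limma adjusted p of 0.011, 0.041 and 0.0056.

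Atp5c1, the gamma subunit that turns inside the head of ATP synthase, lies on chromosome 2 (10056016 to 10080510, minus strand). It gave 230.4, 227 and 217 at 24 h over OP9-Dll4, against 187, 153 and 197 at 6 h. Over OP9-Jag1 it gave 226, 233 and 209 at 24 h, against 192, 169 and 188 at 6 h. Over OP9-GFP it gave 217, 225 and 232 at 24 h, against 188, 152 and 185 at 6 h. No 6 h library reached any 24 h library of its OP9 line, and replicate 2 was the lowest at 6 h each time. The log2 changes were 0.34 ± 0.09, 0.28 ± 0.09 and 0.36 ± 0.09, with limma adjusted p of 0.019, 0.046 and 0.012. Ndufs4 and Atp5c1 were the members called over all 3 lines.

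Sdha, the flavoprotein of complex II that oxidizes succinate, lies on chromosome 13 (74322254 to 74350280, minus strand). It gave 189, 179 and 192 at 24 h over OP9-Dll4, against 166, 123 and 148 at 6 h. Over OP9-Jag1 it gave 186, 189 and 191 at 24 h, against 164, 121 and 156 at 6 h. Replicate 2 at 6 h was again the lowest library in both, and the groups did not overlap. It rose by 0.37 ± 0.12 over OP9-Dll4 (adjusted p 0.041) and by 0.37 ± 0.12 over OP9-Jag1 (adjusted p 0.042).

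Uqcrh lies on chromosome 4 (116066965 to 116075071, minus strand) and behaved evenly between libraries. It gave 92.4, 96.1 and 91.2 at 24 h over OP9-Dll4, against 83.4, 82.8 and 82.3 at 6 h. Over OP9-GFP it gave 87.7, 89.6 and 94.6 at 24 h, against 73.8, 71.2 and 73.5 at 6 h. Here replicate 2 at 6 h lay with the other 6 h libraries. It rose by 0.17 ± 0.05 over OP9-Dll4 (adjusted p 0.028) and by 0.31 ± 0.05 over OP9-GFP (adjusted p 0.00053, the smallest of any member). Over OP9-Jag1 it gave 92.1, 92.6 and 88.1 at 24 h and 87.1, 90.0 and 82.5 at 6 h, which overlap.

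Cox7c, a small subunit of complex IV on chromosome 13 (86044816 to 86046904, minus strand), gave 98.7, 95.5 and 88.8 at 24 h over OP9-Dll4, against 78.1, 81.3 and 82.5 at 6 h. Over OP9-GFP it gave 89.1, 89.5 and 99.7 at 24 h, against 74.6, 72.8 and 74.3 at 6 h. The 6 h libraries lay close together and below every 24 h library. It rose by 0.22 ± 0.06 (adjusted p 0.025) and 0.32 ± 0.06 (adjusted p 0.0027) in these 2 comparisons. Atp5g2, on chromosome 15 (102662864 to 102672352, minus strand; it shares exon sequence with the microRNA gene Mir688), gave 145, 142 and 142 at 24 h over OP9-Dll4, against 131, 95.1 and 119.8 at 6 h. Over OP9-GFP it gave 137, 145 and 132 at 24 h, against 115, 102 and 121 at 6 h. It rose by 0.32 ± 0.09 (adjusted p 0.027) and 0.29 ± 0.09 (adjusted p 0.036).

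**Figure D3:**
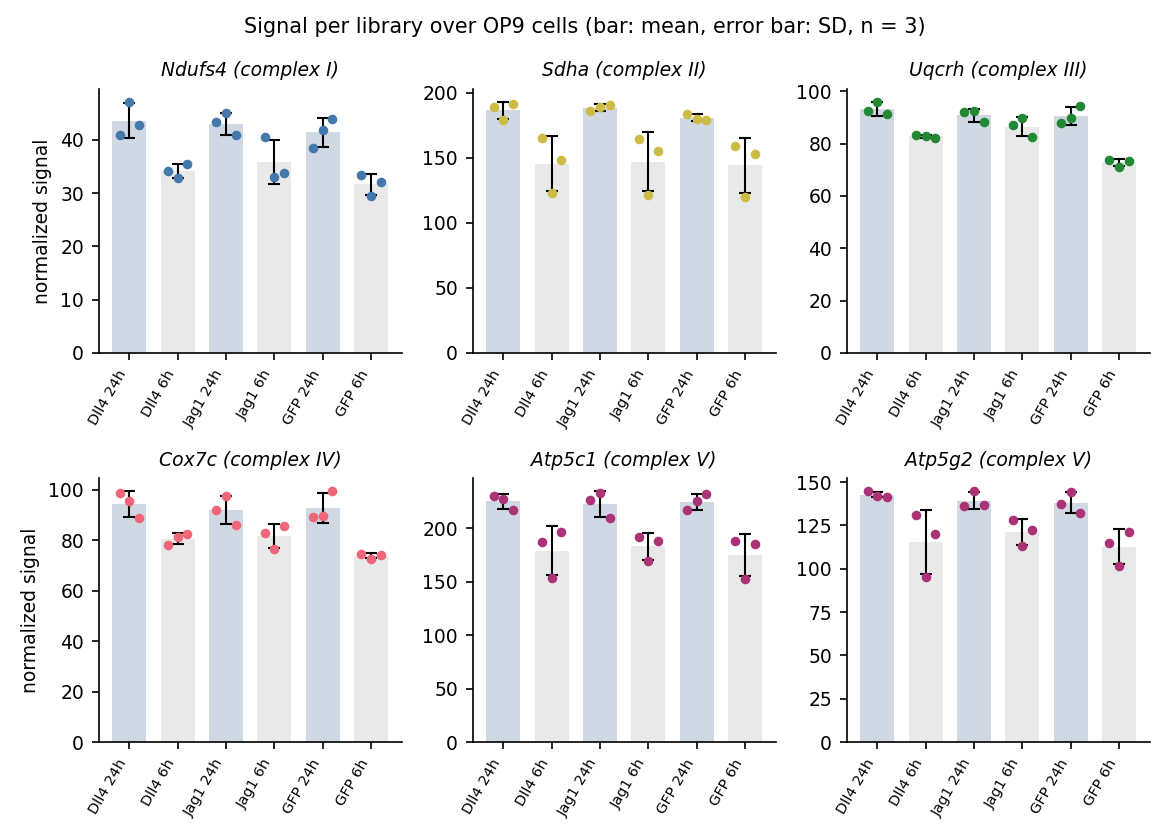
Normalized signal of 6 members in each library of the first experiment, 24 h left of 6 h for each OP9 line. Bars are means, error bars are SD and points are the 3 libraries of a group: for Uqcrh the 6 h libraries over OP9-GFP lie between 71.2 and 73.8, for Sdha between 120.1 and 159.

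The other members called over 1 line were found among accessory and core subunits alike. Over OP9-Dll4, Ndufb10 rose by 0.39 ± 0.09 (adjusted p 0.0096), Ndufab1, the mitochondrial acyl carrier protein, by 0.34 ± 0.08 (adjusted p 0.011) and Ndufa9 by 0.26 ± 0.08 (adjusted p 0.047). Over OP9-GFP, Cox8a rose by 0.27 ± 0.07 and Atp5e, the epsilon subunit of ATP synthase, by 0.27 ± 0.07. There, too, Ndufc2 rose by 0.34 ± 0.09, Ndufs1, the largest iron-sulfur subunit of complex I, by 0.25 ± 0.07, and Atp5g1 by 0.32 ± 0.09. Of the 17 members called over any line, 11 were called over 1 only, and whether the lines differed was tested as an interaction. Neither interaction called a member: for Jag1 the change between OP9-Jag1 and OP9-GFP at 24 h minus that at 6 h had a median of -0.08 over the members, and for Dll4 -0.02. Of all genes, 0.0% and 0.0072% were called higher and lower for Jag1, and the same shares for Dll4. At an unadjusted p under 0.05 there were 4 and 0 members, against 3.46% and 2.81% of all genes.

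The 6 h libraries of replicate 2 were low in these genes as a group. Against each gene's mean over the first experiment, the median log2 deviation of the 78 members was -0.18 in OP9-Dll4 replicate 2 at 6 h, -0.08 in OP9-Jag1 replicate 2 and -0.25 in OP9-GFP replicate 2. It lay between -0.09 and 0.03 in the other 6 h libraries and between 0.01 and 0.12 in the 24 h libraries. The same 3 libraries were low in the 87 cytosolic ribosomal protein genes, at -0.35, -0.25 and -0.43, and high in the share of mitochondrially encoded subunits, at 3.02%, 2.66% and 3.09% of the signal. In them, members with a transcript above 849.5 bases were lower, at -0.27, -0.19 and -0.35, than shorter members, at -0.13, -0.02 and -0.18. Marker sums of other cell types were also compared between the times. The 6 cardiomyocyte markers summed to 43.8 to 79.1 at 24 h and 24.1 to 43.5 at 6 h over OP9-Dll4. They summed to 21.4 to 32.9 at 24 h and 26.4 to 46.9 at 6 h over OP9-Jag1, and to 29.5 to 33.2 and 23.2 to 42.1 over OP9-GFP. They thus overlapped over these lines, while over OP9-Dll4 the lowest 24 h sum, 43.8, lay just above the highest 6 h sum, 43.5. The 24 h libraries there gave 79.1, 43.8 and 49.3, so the top of that range was replicate 1 alone. Over the first experiment Myh7, Myl2, Actc1 and Ttn had median signals of 0.04, 0.03, 0.03 and 0.23. Their highest values were 19.5, 4.31, 9.24 and 4.09. Tnnt2 and Myl7 had medians of 25.3 and 4.73. The 3 leukocyte and erythroid markers listed summed to 4.02 to 9.02 at 24 h and 6.59 to 11.7 at 6 h over OP9-Dll4. They summed to 3.57 to 4.16 and 6.24 to 13.1 over OP9-Jag1, and to 3.16 to 4.66 and 7.68 to 11.8 over OP9-GFP, lower at 24 h without overlap over these lines. The 9 stromal markers overlapped between the times over each line, at 765 to 866 and 798 to 1063 over OP9-Dll4, 793 to 902 and 786 to 989.6 over OP9-Jag1, and 772 to 1000.1 and 783 to 1240 over OP9-GFP. The 8 endothelial and endocardial markers overlapped too, at 197 to 207 and 176 to 201 over OP9-Dll4, 189.8 to 203 and 183 to 204 over OP9-Jag1, and 205 to 216 and 183 to 211.5 over OP9-GFP. Replicate 2 had the highest stromal sum of each 6 h group, at 1063 over OP9-Dll4, 989.6 over OP9-Jag1 and 1240 over OP9-GFP. It also had the lowest cardiomyocyte sum of each 6 h group, at 24.1, 26.4 and 23.2 in this order. The part of these differences in the result was not tested beyond the values that follow.

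**Figure D4:**
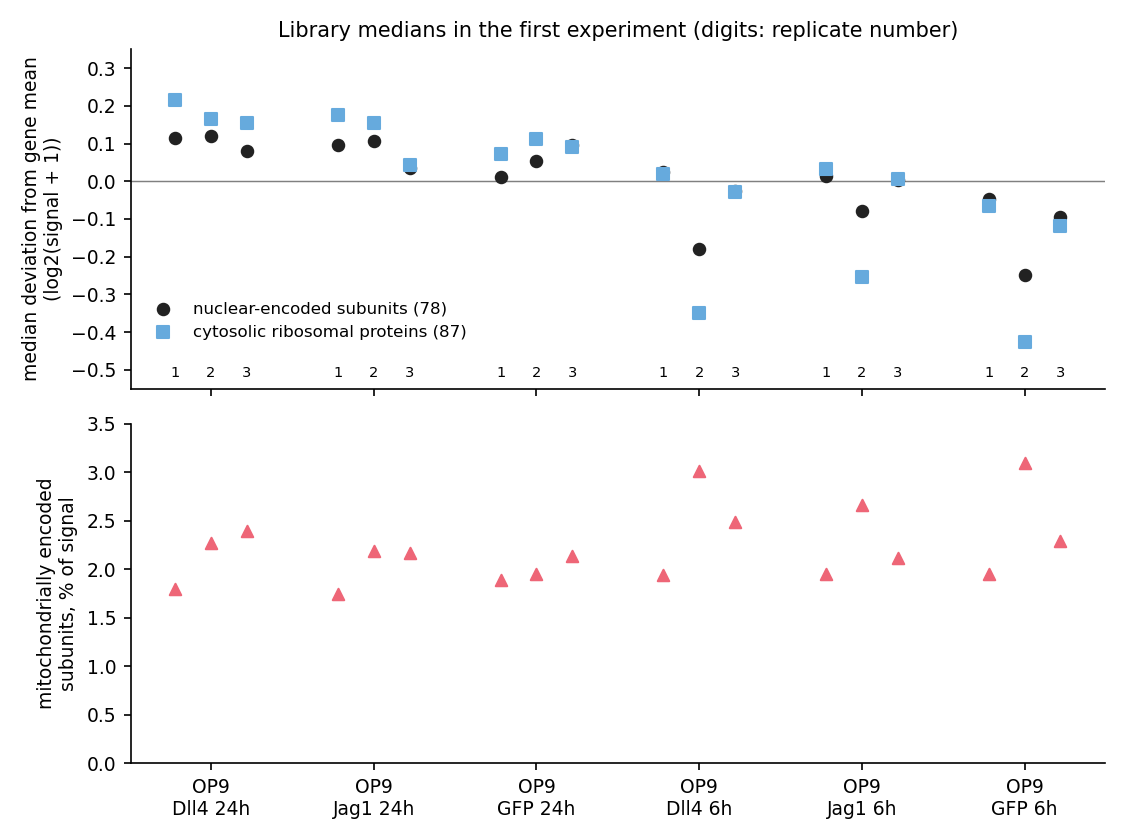
Upper panel: median deviation of the members and of cytosolic ribosomal protein genes from their mean over the first experiment, per library, on the log2(signal + 1) scale; lower panel: share of signal from the 13 mitochondrially encoded subunits. The 3 libraries of replicate 2 at 6 h are low above and, at 3.02%, 2.66% and 3.09%, high below.

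Without those 3 libraries, a setting chosen after seeing the data, 11 members rose over OP9-Dll4, 4 over OP9-Jag1 and 15 over OP9-GFP at 24 h, with median changes of 0.09, 0.05 and 0.14. The counts were thus as high without them, while the medians were smaller. The share of all genes called is not given for this setting, so whether these counts are particular to the members cannot be told here. The count also depended on single libraries. Over OP9-Dll4 it was 0 without 6 h replicate 2, 18 without 6 h replicate 1, 3 without 24 h replicate 1 and 1 without 24 h replicate 2. Over OP9-Jag1 it was 4 without 6 h replicate 1 and 0 without any other library. Over OP9-GFP it was 25 without 6 h replicate 1, 4 without 6 h replicate 2, 6 without 24 h replicate 2 and 7 without 24 h replicate 3. Uqcrh, Cox7c and Ndufs4 over OP9-GFP were called in all 6 fits that left out 1 library. Without the authors' scaling factors, a setting also chosen after seeing the data, 3, 0 and 4 members rose, and the medians were 0.08, 0.02 and 0.10, against -0.09, -0.08 and -0.10 over all genes.

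Other genes of mitochondrial function were followed over the same interval, with no test between lists. The 13 mitochondrially encoded subunits gave 0 calls over any line, with median log2 changes of -0.06 over OP9-Dll4, -0.05 over OP9-Jag1 and -0.19 over OP9-GFP. Without the 3 libraries of replicate 2 at 6 h these medians were 0.07, 0.09 and 0.01, and 1 of the 13 fell over OP9-Dll4 and 1 rose over OP9-Jag1. Of the 16 complex I assembly factors listed, 1 rose over OP9-Dll4, 1 rose and 1 fell over OP9-Jag1 and 2 rose over OP9-GFP. Aifm1, which helps import a complex I factor, rose by 0.25 ± 0.07, 0.24 ± 0.07 and 0.23 ± 0.07, while Ndufaf4 fell by 0.29 on the log2 scale over OP9-Jag1 (SE 0.06). Of the 39 assembly factors for complexes II to V, 0 rose and 1 fell over each line. Sco2, a copper carrier for complex IV, fell by 0.49 (SE 0.14) over OP9-Jag1 and by 0.43 (SE 0.14) over OP9-GFP, and Ttc19, a complex III factor, fell by 0.23 (SE 0.07) over OP9-Dll4.

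Of 22 genes of pyruvate dehydrogenase and the citric acid cycle, 3, 4 and 3 rose and 0 fell over OP9-Dll4, OP9-Jag1 and OP9-GFP. Suclg2, a subunit of succinyl-CoA ligase, rose by 0.45 ± 0.12, 0.46 ± 0.12 and 0.43 ± 0.12. Pdha1, the alpha subunit of pyruvate dehydrogenase, rose by 0.34 ± 0.11 over OP9-Dll4 and 0.41 ± 0.11 over OP9-GFP. Of 20 electron and ADP/ATP carriers, a list that includes the member Uqcrfs1, Cyc1, the cytochrome c1 of complex III, was the only call over OP9-Dll4, at 0.23 ± 0.08, and over OP9-GFP, at 0.31 ± 0.08, and none was called over OP9-Jag1. Of 17 biogenesis regulators, 1 rose and 1 fell over OP9-Dll4 (Gabpb1, 0.18 ± 0.06, and the mitochondrial transcription factor Tfb1m, -0.32 ± 0.11). Over OP9-Jag1 1 rose (Gabpb1, 0.19 ± 0.06), and over OP9-GFP 1 rose (Yy1, 0.22 ± 0.07) and 1 fell (Tfb2m, -0.27 ± 0.08). Of 80 mitochondrial ribosomal proteins, 7, 1 and 6 rose and 1, 0 and 0 fell, and Mrpl52 rose over all 3 lines by 0.44, 0.43 and 0.53. Of 87 cytosolic ribosomal proteins, 27, 1 and 32 rose and 0 fell, with medians of 0.31, 0.20 and 0.30, larger than those of the respiratory chain members.

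The next comparison asked what the ligands changed. At 6 h over OP9-Jag1 against OP9-GFP, 0 of 78 members were called, against 0.072% of all genes higher and 0.0288% lower. All but 1 had a positive log2 change, with a median of 0.11 against -0.00 over all genes, and 19 members (24.36%) had an unadjusted p under 0.05, against 4.98% of all genes. By replicate, the median deviation of the members was 0.01, -0.08 and 0.00 over OP9-Jag1, against -0.05, -0.25 and -0.09 over OP9-GFP. The 2 lines were furthest apart in replicate 2, whose 6 h libraries stood apart. Uqcrh had the smallest p. It gave 87.1, 90.0 and 82.5 over OP9-Jag1, against 73.8, 71.2 and 73.5 over OP9-GFP, so that every OP9-Jag1 library was higher. Its log2 change was 0.24 ± 0.05, with limma adjusted p of 0.070 in the unblocked fit. Atp5e gave 49.7 ± 3.0 over OP9-Jag1 and 41.7 ± 2.0 over OP9-GFP (SD, n = 3 each), a change of 0.25 ± 0.07 with limma adjusted p of 0.33. With the replicate number as a block, 1 member was called, Uqcrh at adjusted p 0.026, and with the block fitted within each time 7 were called, all of them higher. The shares of all genes above belong to the unblocked fit and are not given for the fits with a block. Whether the calls with a block are particular to the members therefore cannot be told here. Beside this, the 3 OP9-GFP libraries were lower than same-numbered OP9-Jag1 libraries in the 87 cytosolic ribosomal protein genes too, with a median change of 0.13 for OP9-Jag1 over OP9-GFP. Whether the member values move with that was not tested.

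At 6 h over OP9-Dll4 against OP9-GFP, 0 members were called, against 0.0072% and 0.0% of all genes higher and lower, and 6 had an unadjusted p under 0.05, or 7.692% against 3.88% of all genes. The median change was 0.06 and 67 of 78 were positive. Uqcrh, at 83.4, 82.8 and 82.3 over OP9-Dll4 against 73.8, 71.2 and 73.5 over OP9-GFP, again had the smallest p (0.18 ± 0.05, limma adjusted p 0.57). With the block fitted within each time its adjusted p was 0.047 and 2 members were called, again without a share of all genes for that fit. Cox8a was next, at 0.22 ± 0.07, and its groups overlapped. Between OP9-Dll4 and OP9-Jag1 at 6 h, 0 members and 0.0% of all genes were called in either direction, 0 members had an unadjusted p under 0.05, against 1.86% of all genes, and the median was -0.05. The smallest p there was that of the pseudogene Ndufab1-ps, with 37, 64 and 62 reads over OP9-Dll4 and 70, 0 and 4 over OP9-Jag1. Its reads may be shared with its parent gene Ndufab1, so its values are uncertain. Next was Atp5k, the e subunit of ATP synthase, at -0.12 ± 0.08.

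At 24 h no member was called for any ligand, at 0.266% and 0.245% of all genes higher and lower for OP9-Dll4 against OP9-GFP. The shares were 1.04% and 0.987% for OP9-Jag1 against OP9-GFP, and 0.0288% and 0.0% for OP9-Dll4 against OP9-Jag1. In these comparisons 0 members had an unadjusted p under 0.05, against 6.8%, 10.5% and 1.92% of all genes. The median changes were 0.04, 0.02 and 0.02. An interval of 2 SE around the change stayed within 0.5 on the log2 scale for 77 of 78 members for OP9-Dll4 against OP9-GFP, for 75 for OP9-Jag1 against OP9-GFP and for 76 between the ligands. Cox8a had the smallest p against OP9-GFP for both ligands. It gave 115.8 ± 2.7 over OP9-Dll4 and 115.3 ± 1.8 over OP9-Jag1, and 104 ± 4.4 over OP9-GFP (SD, n = 3 each), changes of 0.15 ± 0.07 and 0.14 ± 0.07 with limma adjusted p of 0.73 and 0.52.

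The second experiment asked what the gamma-secretase inhibitor changed in control co-culture, and no member was called. After RO4929097 against DMSO, 0 of 77 members were called, against 0.223% of all genes higher and 0.685% lower, and the median change was -0.01. An interval of 2 SE stayed within 0.5 on the log2 scale for 76 of 77. Uqcrfs1 was the 1 member with an unadjusted p under 0.05 (1.299% of the members, against 10.5% of all genes). It gave 73.8, 69.4, 78.8 and 83.7 after RO4929097, against 84.4, 88.0, 84.6 and 84.7 after DMSO. Every inhibitor library was lower, replicate 4 only slightly, and the change was -0.16 ± 0.06 with limma adjusted p of 0.35. Cox7c gave 38.3, 42.1, 45.6 and 57.1 after RO4929097, against 59.3, 53.5, 46.6 and 50.8 after DMSO, which overlap (-0.21 ± 0.11, limma adjusted p 0.60). The mitochondrially encoded subunits took 2.01% to 2.40% of the signal after RO4929097 and 1.92% to 2.63% after DMSO.

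On recombinant ligand, calls among the members fell on few genes, and 2 of them belong to complex III. On rDLL4 against DMSO, 0 members rose and 1 fell, or 1.28%, against 2.45% of all genes higher and 1.05% lower. On rJAG1 against DMSO, 1 rose and 0 fell, or 1.28%, against 4.83% higher and 4.76% lower. With the inhibitor, 2 rose and 0 fell on rDLL4 + RO against rDLL4, or 2.56%, against 4.91% higher and 5.76% lower, and 0 rose and 4 fell on rJAG1 + RO against rJAG1, or 5.13%, against 9.58% higher and 8.78% lower. At an unadjusted p under 0.05 there were 3, 6, 14 and 12 members in this order, or 3.846%, 7.692%, 17.95% and 15.38%, against 11.5%, 20.9%, 22.7% and 30.8% of all genes. The member shares were thus near or below those of all genes. The median changes were -0.06, 0.05, 0.10 and -0.05 in this order, against -0.00, 0.00, 0.01 and 0.01 over all genes. Without rJAG1 replicate 2 the median was -0.02 for rJAG1 against DMSO and 0.03 for rJAG1 + RO against rJAG1, so both directions rest on that library. These comparisons share libraries with each other.

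Uqcrh gave 55.7, 57.5 and 55.8 on rDLL4, against 77.5, 79.1 and 65.1 on DMSO. All 3 rDLL4 libraries lay close together and below every other library of the experiment, and the change was -0.38 ± 0.09 (limma adjusted p 0.034). On rDLL4 + RO it gave 79.9, 73.3 and 72.3, all above rDLL4, and it rose by 0.41 ± 0.09 (adjusted p 0.0094). The call against DMSO held in 1 of 6 fits without 1 library, the one without DMSO replicate 3, and was lost without any other (adjusted p 0.086 to 0.15). The call for the inhibitor held in all 6. On rJAG1 it gave 59.5, 73.0 and 57.9 against the same DMSO libraries, a change of -0.22 ± 0.09 with limma adjusted p of 0.19. On rJAG1 + RO it gave 70.4, 75.7 and 67.0, a change of 0.17 ± 0.09 against rJAG1 with limma adjusted p of 0.25.

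Uqcrq, a small subunit of complex III on chromosome 11 (53427922 to 53430831, minus strand), gave 101, 125 and 90.7 on rJAG1, against 83.6, 76.3 and 78.1 on DMSO. Replicate 2 of rJAG1 was the highest library of the experiment, and the other rJAG1 libraries were also above every DMSO library. It rose by 0.40 ± 0.09 (limma adjusted p 0.013). On rJAG1 + RO it gave 79.3, 83.1 and 77.5, all below rJAG1, and it fell by 0.39 (SE 0.09, adjusted p 0.0098). The rise was called in 5 of 6 fits without 1 library, the exception being DMSO replicate 2 (adjusted p 0.053), and the fall in all 6. On rDLL4 it gave 87.6, 86.3 and 86.8 against the same DMSO libraries, a change of 0.13 ± 0.09 with limma adjusted p of 0.76. With the replicate block, 2 members were called on rJAG1 against DMSO: Ndufs4, at 0.20 and adjusted p 0.044, joined Uqcrq.

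Ndufa4, on chromosome 6 (11900292 to 11907497, minus strand), gave 189.9, 174 and 179 on rDLL4 + RO, against 133, 154 and 144 on rDLL4. The groups did not overlap, and it rose by 0.33 ± 0.08 (limma adjusted p 0.014). The call was lost without rDLL4 replicate 1 (adjusted p 0.077) or rDLL4 + RO replicate 1 (0.061).

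Cox5a and Ndufs8 also fell on rJAG1 + RO against rJAG1. Cox5a, on chromosome 9 (57521274 to 57532426, plus strand), gave 133, 117 and 114 on rJAG1 + RO, against 149, 167 and 134 on rJAG1, which just fail to overlap. It fell by 0.30 (SE 0.08, adjusted p 0.019). Ndufs8, an iron-sulfur core subunit of complex I on chromosome 19 (3908863 to 3912774, minus strand), gave 51.9, 49.9 and 46.4 on rJAG1 + RO, against 57.1, 67.7 and 55.8 on rJAG1, and fell by 0.28 (SE 0.09, adjusted p 0.038). Both were highest in rJAG1 replicate 2, and without that library their adjusted p were 0.086 and 0.16. Cox5a has exons that overlap a gene on the other strand, Gm26631, and the counting's use of strand is not given in the sources used here. In rJAG1 replicate 2 the median log2 deviation of the members was 0.20 and that of cytosolic ribosomal proteins 0.25, against -0.09 to 0.12 and -0.17 to 0.08 in the other 14 libraries. Without it, 1 member rose and 2 fell on rJAG1 + RO against rJAG1.

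**Figure D5:**
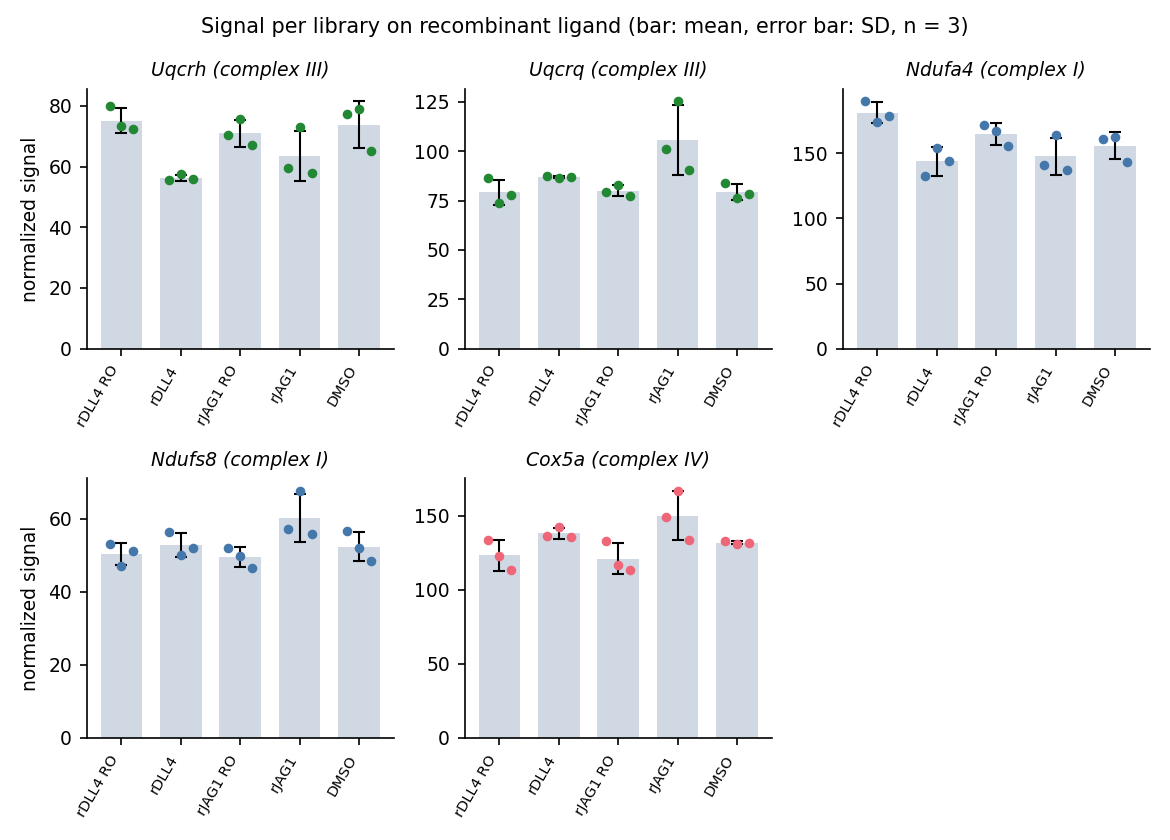
Normalized signal of 5 members called in the third experiment, per library, with ligand plus inhibitor left of ligand alone and DMSO last. Bars are means, error bars are SD and points are 3 libraries: Uqcrh on rDLL4 lies between 55.7 and 57.5 and Uqcrq on rJAG1 between 90.7 and 125.

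The counts for rJAG1 + RO against rJAG1 were 1 without rJAG1 + RO replicate 2, 2 without rJAG1 + RO replicate 3 and 3 to 6 without any other library. For the inhibitor on rDLL4 they were 1 without rDLL4 replicate 1 or rDLL4 + RO replicate 1, and 2 otherwise. On rJAG1 against DMSO they were 0 without DMSO replicate 2, 2 without DMSO replicate 3 or rJAG1 replicate 2 (1 higher and 1 lower each time), and 1 otherwise. Between the ligands, rDLL4 against rJAG1, 0 members were called, against 0.104% and 0.127% of all genes, and 7 (8.974%) had an unadjusted p under 0.05, against 7.15% of all genes. The median was -0.11, but without rJAG1 replicate 2 it was -0.02 and 1 member had such a p. There Ndufa13, an accessory subunit of complex I also known as GRIM-19, had the smallest p. It gave 33.5 ± 2.1 on rDLL4 and 42.3 ± 3.6 on rJAG1 (SD, n = 3 each), a change of -0.32 ± 0.10 with limma adjusted p of 0.33. For the difference of the inhibitor's effect between the ligands (rDLL4 minus rJAG1), 0 members were called, against 0.0149% of all genes higher and 0.0% lower. At an unadjusted p under 0.05 there were 7 members, against 3.7% of all genes, the median difference was 0.14 (2 members and 0.07 without rJAG1 replicate 2) and Ndufb3, an accessory subunit, had the smallest p at 0.30 ± 0.11 (limma adjusted p 1.00).

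Ligand plus inhibitor against DMSO gave 0 called members for both ligands, against 0.552% and 0.85% of all genes for rDLL4 + RO and 0.373% and 0.567% for rJAG1 + RO. The medians were 0.05 and 0.00, and 5 members and 1 had an unadjusted p under 0.05, against 11.8% and 9.58% of all genes. On rDLL4 + RO against DMSO, Ndufa4 gave 181 ± 8.0 and 155.8 ± 10.5 (SD, n = 3 each), a change of 0.22 ± 0.08 with limma adjusted p of 0.27. On rJAG1 + RO, Ndufb3 gave 29.9 ± 0.6, against 35.6 ± 2.0 on DMSO (SD, n = 3 each), a change of -0.24 ± 0.07 with limma adjusted p of 0.18. Between rDLL4 + RO and rJAG1 + RO 0 members and 0.0% of all genes were called, 2 members had an unadjusted p under 0.05, against 1.42% of all genes, and the median was 0.03.

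Beside these genes, the 13 mitochondrially encoded subunits gave 0 calls in any comparison of the third experiment. On rJAG1 + RO against rJAG1, 12 of 79 mitochondrial ribosomal proteins and 6 of 87 cytosolic ribosomal proteins fell and 0 rose, with medians of -0.17 and -0.15. Replicate 2 of rJAG1 was the highest rJAG1 library in both lists, and without it 5 and 1 fell, with medians of -0.13 and -0.08. Mrpl52 fell by 0.70 (SE 0.13) and Mrpl46 by 0.46 (SE 0.10). Among 22 genes of pyruvate dehydrogenase and the citric acid cycle, 1 rose and 3 fell: Suclg2 rose by 0.42 ± 0.09, while Dlst and Mdh2 fell by 0.24 (SE 0.06) and 0.22 (SE 0.06). Of 17 biogenesis regulators, Ppargc1b, a PGC-1 coactivator, rose by 0.85 ± 0.20 and its partner Esrra fell by 0.37 (SE 0.09). Higd1a, of the 39 assembly factors for complexes II to V, fell by 0.37 (SE 0.11). On rDLL4 + RO against rDLL4, Suclg2 rose by 0.40 ± 0.09, Tmem126b, a complex I assembly factor, by 0.42 ± 0.11, and Pet100, a complex IV assembly factor, by 0.52 ± 0.12, while Gabpb1 fell by 0.24 (SE 0.07). On rJAG1 against DMSO, Pdk1, a kinase that inhibits pyruvate dehydrogenase, fell by 0.68 (SE 0.13) and the mitochondrial ribosomal protein Mrps18a rose by 0.38 ± 0.10, a call lost without rJAG1 replicate 2. The summed signal of the 7 stromal markers was higher with the inhibitor, at 1139 to 1284 on rDLL4 + RO against 848 to 1007 on rDLL4, and 1093 to 1174 on rJAG1 + RO against 756 to 886 on rJAG1. Its part in these results was not tested.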

How the data were processed

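For each experiment there is 1 deposited table of signal, already normalized by the authors. FastQC, cutadapt, limma, RSEM and the build GRCm38 are named in the submitters' processing notes, without versions or roles. From the deposited values, a signal is whole reads plus 0.5 divided by a scaled library size (in M), with 100% of the values whole within 0.01 reads. The tables were normalized apart, so tests stayed within a table. RNA was extracted with PicoPure and libraries were made with NEBNext Ultra, per the labels' protocols. Libraries held 14.1 M to 16.8 M, 19.4 M to 25.2 M and 11.2 M to 34.2 M reads, so that 3 reads stand for a signal of 0.0859 to 0.266.

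Log2(signal + 1) was fitted with limma 3.58.1 (trend, R 4.3.3), 1 fit per table over its groups, and p was adjusted after Benjamini and Hochberg over every gene tested. A gene was kept if its signal was at least 1 in a number of libraries equal to the size of the smallest group, and 0 members failed this. Called means an adjusted p under 0.05. A log2 change is on the log2(signal + 1) scale and is followed by its SE. Where only a p or a change is printed, it is limma's. The code was tested on simulated data. There were 18 comparisons of 2 groups and 3 interactions. Alternatives included edgeR 4.0.16 on the recovered reads. Tables were made with Python 3.11.15 and pandas 2.3.3.

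Members and gene lists were chosen with earlier results of these data known. Named are up to 10 called members per comparison and direction by smallest p, otherwise the 2 with the smallest p, isoform members, the highest and lowest per complex, and up to 2 called genes per other list. The values of 1 called member are not reported here, though counts and medians include it. Atp5a1 and Atp5g3 were named after their values were seen. Levels per kb use GENCODE principal transcripts of GRCm38. Separate cultures are not stated for the libraries of a group. The p-values therefore rest on a spread between libraries that may be technical. Over all genes, same-numbered libraries deviated together (every correlation over 0.1) in all comparisons but those between times and rDLL4 + RO against rDLL4. These correlations were 0.0778 to 0.683 over all pairs within a time, and 0.0309 to 0.276 between times. Over the members alone they varied more within a time, from -0.50 (replicate 1, RO4929097 and DMSO) to 0.92 (replicate 1 at 6 h, OP9-Jag1 and OP9-GFP).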

Additional observations from a re-analysis of the deposited data

Results flagged for a closer look

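Uqcrfs1, the Rieske protein of complex III, gave 88.0 in DMSO replicate 2 of the second experiment, apart from 84.4, 84.6 and 84.7 in the other DMSO libraries. The gap to its nearest neighbour was 0.908 of the group's range. The threshold for such a gap is one that chance passes in about 1 of 20 groups, and 8 groups were tested. No cause was tested.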

How the results depend on the processing

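No named gene value changed direction under any alternative. Of 58 named values, 58 kept their side of the threshold with a pseudocount of 0.1 and 57 with edgeR on recovered reads. Under quantile normalization 46 did, with only the groups compared 45 and without scaling factors 43. Every listed gene passed the filter, so a fit without it repeats the main fit and is no check. Counts of called members at 24 h against 6 h over OP9-Dll4, OP9-Jag1 and OP9-GFP were 9, 3 and 13. They were 3, 1 and 8 under quantile normalization, 20, 15 and 28 with library weights, and 3, 0 and 4 without scaling factors. With only the groups compared they were 3 over OP9-Dll4 and 8 over OP9-GFP. Without 1 library they ranged from 0 to 18, 0 to 4 and 4 to 25. Shares of all genes called are given for the main fit only. For counts under other settings, here and below, whether they are particular to the members cannot be told. The causes were not tested.

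With the replicate block these counts were 25, 8 and 38, and 5 against 2 for rDLL4 + RO against rDLL4. In these comparisons the libraries share only a number, and over all genes 4, 6, 6 and 2 of 6 libraries correlated best with their own number. At 6 h against OP9-GFP, the counts for OP9-Jag1 were 0, 1 with the replicate block, 7 with the block within each time and 13 with library weights. For OP9-Dll4 they were 0, 2 with the block within each time and 1 with library weights, and for OP9-Dll4 against OP9-Jag1 0, and 1 with library weights. The block gave 2 against 1 call for rJAG1 against DMSO and changed no other call of a paired comparison.

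In the third experiment library weights gave 5 calls for rDLL4 against DMSO, 5 for rJAG1 against DMSO, 5 for rDLL4 + RO against rDLL4 and 9 for rJAG1 + RO against rJAG1. They gave 4 for rDLL4 + RO and 3 for rJAG1 + RO against DMSO. With only the groups compared the first 4 counts were 0, 0, 5 and 2. Without 1 library they ranged from 0 to 1, 0 to 2, 1 to 2 and 1 to 6. In all other comparisons the count was 0 without any 1 library. Depth limits only Ndufab1-ps (0 to 98 reads in the first experiment) and Cox6b2 (5 to 37).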

Other observations

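Atp5j2, the f subunit of ATP synthase, differed in level between the experiments. Over the first table its signal ran between 38.1 and 51.7. It ran between 92.3 and 103 in the second table and between 88.1 and 131 in the last. By signal per kb it ranked 58, 25 and 25 among the members. The tables were normalized apart and no sample is shared between them, so this was not tested.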
